A study of Mus musculus with 11 samples.

Results

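Cell 1 is one of the single-cell contact maps of mouse Th1 cells made with the restriction enzyme Bgl II, and it was compared here with the other 8 Bgl II cells, numbered 2 to 7, 9 and 10. It was chosen by its measured values, namely few contacts between chromosomes and a density of contacts within chromosomes that rises between 10 and 16 Mb and is low beyond 50 Mb. It makes up 1 of the 11 samples of the series and holds 29970 contacts on chromosomes 1 to 19. The other 8 cells together hold 140590. The Th1 cells, all CD4+, came from spleens of male C57BL/6 mice, were stimulated with anti-CD3 and then grown with IL-2, and this is shared by all maps. A population map of the same cell type, here called the ensemble, and 1 cell cut with Dpn II, cell 8, complete the series, together with a map pooled over single cells. The labels name no animal, culture or cell cycle stage for any cell, so each SD below describes the spread over these 8 cells and may be technical in part. The maps hold positions and no expression, so the labelled cell type has no marker level that could be checked.

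In Hi-C, DNA ends that are near each other in a fixed nucleus are ligated, and the ligated pairs are sequenced. Contacts within a chromosome (cis) become rarer with distance along the DNA, and contacts between chromosomes (trans) form where chromosome territories meet. Short cis contacts cluster within domains, stretches of chromatin that contact themselves more than their neighbours, and far contacts join chromatin of like kind, active with active and inactive with inactive, which is called compartmentalisation. At mitosis chromosomes condense into separate rods, and domains and compartments are largely lost in mitotic populations.

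Cell 1 had the most contacts of the 9 Bgl II cells; the others ranged from 10834 in cell 10 to 26632 in cell 2, with a median of 17722. Sequencing depth and cell identity cannot be told apart with 1 map per cell. Occupied chromosome pairs, neighbouring contacts and ends with several partners are also given at equal numbers of contacts. The share in pairs over 3 times their expected number and the ratios of single pairs are given at the full number of trans contacts of each cell, from 1733 to 6777. No contact over 1 Mb or between chromosomes was listed with the same pair of ends in cell 1 and in any other of the 8 cells, and 22 shorter ones were. Intervals below are 95% intervals of counting error alone.

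The values that chose cell 1 are described first, without a test. Trans contacts made up 6.86% of its autosomal contacts (2055 of 29970, Wilson interval 6.58 to 7.15). In the other 8 cells this share was 18.9% ± 5.57 (SD, n = 8), with 10.5% in cell 6 as the lowest, a median of 18.6%, and 25.4% in cell 2 as the highest. The rest of the pool, that is the pooled map without the listed cells, had 20.1% and the ensemble 49.98%. Per possible pair of positions, and relative to the density of cis contacts from 5 to 10 Mb in the same cell, trans contacts in cell 1 were 3.74 times less dense than the mean of the other cells.

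Within chromosomes, cell 1 carried a surplus of contacts between 10 and 40 Mb and a deficit beyond 50 Mb. Contacts from 10 to 16 Mb were 8.06% of its cis contacts, against a lowest of 4.84%, a median of 5.59% and a highest of 6.20% in the other cells. Those from 20 to 40 Mb were 18.4%, against 9.12%, 12.7% and 15.5%. Cell 1 thus lay above all 8 others in both ranges. From 40 to 50 Mb it held 4.50% against a median of 4.35%, within the range of the others. Beyond 50 Mb the order turned. Cell 1 had 4.15% there (1159 of 27915, Wilson interval 3.92 to 4.39), and the other cells had 10.1% ± 3.29 (SD, n = 8), from 5.18% in cell 10 over a median of 10.5% to 15.4% in cell 4. Only 17 contacts of cell 1 spanned more than 100 Mb, or 0.0609% of its cis contacts, where the other cells had 0.405% to 1.95%. Shorter contacts differed less: from 0.1 to 1 Mb cell 1 had 16.1%, and the other cells 12.2% to 26.5%.

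Expressed as density, which divides the contacts by the number of possible position pairs at that distance, the curve of cell 1 was a shelf with a steep edge. Relative to its own density from 5 to 10 Mb, cell 1 stood at 0.977 from 10 to 16 Mb, at 0.932 from 16 to 20 Mb and at 0.789 from 20 to 40 Mb. The medians of the other cells at those distances were 0.784, 0.769 and 0.645, and the highest values of any other cell were 0.862, 0.791 and 0.719. From 40 to 50 Mb cell 1 fell to 0.456, inside the range of the others, and from 50 to 75 Mb to 0.183, where the other cells had 0.238 to 0.461. From 75 to 100 Mb its density was 0.0415, and the mean of the other cells was 5.94 times higher. From 100 to 200 Mb the mean of the others was 19.6 times higher.

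The rise for which this cell was chosen was a narrow step. The density went from 0.870 at 7.94 to 10 Mb (711 contacts) to 0.976 at 10 to 12.6 Mb (984 contacts), a ratio of 1.12 with an exact interval of 1.02 to 1.24. In the other 8 cells the same ratio ran from 0.796 to 1.01 with a median of 0.846, and cell 5, the highest of them, had an interval of 0.876 to 1.18 that overlapped that of cell 1. Over the wider bands, from 5 to 10 Mb against 10 to 16 Mb, the ratio in cell 1 was 0.977 with an interval of 0.920 to 1.04, so that its density stayed level there rather than rose. The low value at 7.94 to 10 Mb is relative to the density from 5 to 10 Mb in the same cell. As a share of cis contacts cell 1 had 2.55% there, above the median of 2.26% in the others. The drop at the far end was the larger feature. Density from 50 to 75 Mb was 0.232 of that from 20 to 40 Mb (interval 0.217 to 0.249), and in the other cells 0.419 to 0.712. Between 10 to 16 Mb and 20 to 40 Mb the decline was like that of the others, with a ratio of 0.807 against a median of 0.811.

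**Figure D1:**
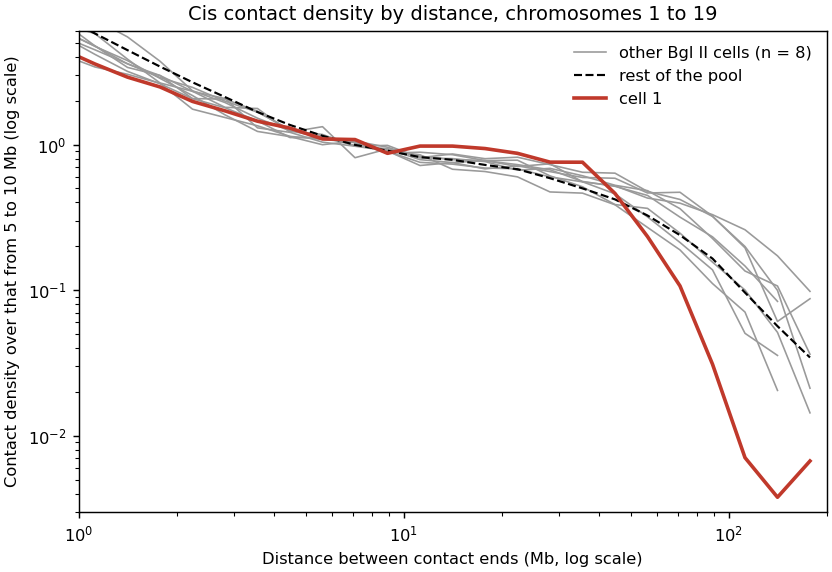
Cis contact density against the distance between contact ends (Mb), both on log scales and each map divided by its own density from 5 to 10 Mb, for cell 1 (red), the 8 other Bgl II cells (grey) and the rest of the pool (dashed). Cell 1 runs above all grey curves from 10 to 16 Mb, at 0.977 over that band, and below all of them from 50 to 100 Mb, at 0.183 from 50 to 75 Mb; curves end where a map has no contact.

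The distance at which density first fell under 50% of that from 10 to 16 Mb was 39.8 Mb in cell 1. Cell 5 fell at the same distance, cells 6 and 10 at 50.1 Mb, cells 3, 7 and 9 at 63.1 Mb, and cells 2 and 4 at 79.4 Mb. These distances are starts of bins of 0.1 in log10, and the order of the lowest cells depended on the bin width. In bins of 0.2 cells 1, 5, 6 and 10 all fell at 39.8 Mb, and in bins of 2 Mb cell 5 fell at 38 Mb, cell 10 at 42 Mb, cell 1 at 44 Mb and cell 6 at 48 Mb.

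Taken chromosome by chromosome, the far edge was seen on nearly all autosomes and the near rise on fewer. The reach of a chromosome was measured as the 95th percentile of distance among its cis contacts over 1 Mb. In cell 1 reach lay between 40.5 Mb on chromosome 19 and 63.4 Mb on chromosome 3, with a median of 54.7 Mb over the autosomes. The corresponding median was 68.0 to 83.1 Mb in the other cells. Cell 1 had the lowest reach of the 9 cells on 16 of 19 autosomes (84.2%), and the other 8 cells together on 3 of 152 (1.97%). The exceptions were chromosomes 10, 17 and 19. As each autosome has 1 lowest cell, the second count follows from the first. This also holds for the counts of the lowest or highest cell below. On chromosome 1, the longest, the reach was 55.0 Mb in cell 1 and 59.2 Mb to 115 Mb in the other cells, with a median of 102 Mb. On chromosome 19, the shortest, it was 40.5 Mb in cell 1 and 35.4 to 45.4 Mb in the others.

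Reach depended less on chromosome length in cell 1 than in the other cells. It gained 0.132 Mb for each Mb of chromosome, and the other cells 0.212 to 0.509 Mb, with a median of 0.410. The longest reach was 1.56 times the shortest in cell 1 and 2.29 to 3.04 times in the others. Across its 19 autosomes, which share 1 library and are not independent, reach and length correlated with r = 0.731 in cell 1, as a description. In the other cells r was 0.520 in cell 10 and 0.801 to 0.935 in the rest. Cell 1 thus had a lower slope than all of them and a lower r than all but cell 10.

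**Figure D2:**
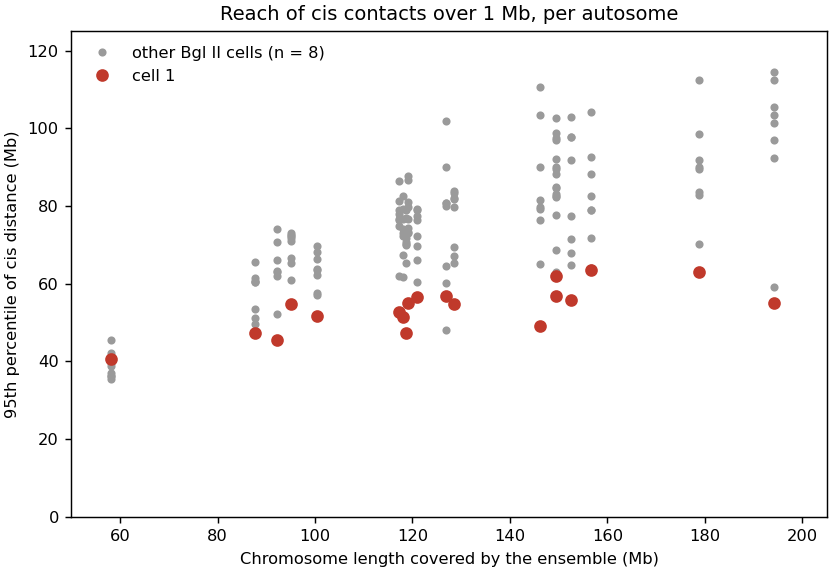
Reach of cis contacts, the 95th percentile of distance (Mb) among contacts over 1 Mb, against the length of each of 19 autosomes covered by the ensemble (Mb); red points are cell 1 and grey points the 8 other Bgl II cells. The red points stay between 40.5 and 63.4 Mb and climb less with length than the grey points.

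The share of cis contacts beyond 50 Mb was the lowest of the 9 cells in cell 1 on 11 of 18 autosomes (61.1%), leaving out chromosome 19 because several cells have none there. The other 8 cells held that place on 7 of 144 (4.86%). Chromosome 3 had the highest share in cell 1, 6.86%, followed by chromosome 2 with 6.25% and chromosome 5 with 5.38%. The median of the other cells was 11.9% on chromosome 3, 11.7% on chromosome 2 and 11.7% on chromosome 5. The lowest shares were 0 of 712 contacts on chromosome 19, 1.76% on chromosome 17 and 2.09% on chromosome 11. For chromosomes 17 and 11 the other cells had medians of 6.80% and 6.995%.

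Contacts from 10 to 16 Mb took their highest share of cis contacts in cell 1 on chromosome 8 with 9.42%, chromosome 17 with 9.24% and chromosome 18 with 9.16%. All 3 values were above the highest of the other cells, which were 8.19%, 8.62% and 7.80%. Their lowest shares were 6.07% on chromosome 12, 6.74% on chromosome 3 and 6.76% on chromosome 10. On chromosomes 3 and 10 other cells reached 7.005% and 7.98%, so cell 1 did not stand out there. Density from 10 to 16 Mb exceeded that from 5 to 10 Mb on 9 of 19 autosomes in cell 1 (47.4%) and on 28 of 152 in the other cells (18.4%). The ratio ran from 0.647 on chromosome 12, lower than in all 8 others, to 1.54 on chromosome 17, higher than in all 8 others. Density from 20 to 40 Mb over that from 5 to 10 Mb was the highest of the 9 cells on 8 of 19 autosomes (42.1%), against 11 of 152 (7.24%). No single autosome carried the curve. With each left out in turn, the ratio of 10 to 16 Mb over 5 to 10 Mb stayed between 0.961 and 0.997, and the share beyond 50 Mb between 3.98% and 4.28%.

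The trans share was low on all chromosomes of cell 1. It ran from 5.11% of contact ends on chromosome 10 to 10.4% on chromosome 19, the shortest, and 10.3% on chromosome 15. It was the lowest of the 9 cells on 18 of 19 autosomes (94.7%), against 1 of 152 for the others (0.658%). The exception was chromosome 15, where 1 other cell had 8.02%.

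Measures that the choice of cell 1 did not use were tested by a two-sided exact permutation test over the 9 cells. With 1 cell against 8 this test cannot give a p below 0.222, so no difference could pass 0.05, and none did. The 7 measures tested come from the same contacts as the values above. A p that misses the threshold does not show that the cells were alike.

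Domains were present in cell 1. Of its 5719 contacts from 50 kb to 1 Mb, 69.6% lay within 1 of the 3223 domains called on the ensemble, whose median length was 650 kb. In the other cells this share was 66.6% to 71.7% with a median of 70.7%, so cell 1 lay within their range. The share in cell 1 was 6.25 percentage points above that expected for positions placed at random at the same distances, and in the other cells 6.32 to 8.50 points, so cell 1 was the lowest by a narrow margin to cell 4. Set against ensemble contacts of the same chromosome and distance, the excess was -1.11 points in cell 1 and -0.0809 ± 0.717 (SD, n = 8) in the others, with cell 4 lower still at -1.12. The difference of -1.03 points had an exact permutation p of 0.444, and of 0.933 after Benjamini-Hochberg adjustment over the 7 measures.

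The gap in domains widened with distance. From 50 to 200 kb the within-domain share was 89.4% in cell 1, equal to the median of the others to 3 digits. From 200 to 500 kb it was 67.6% against a median of 69.4% and a range of 66.4% to 71.7%. From 500 kb to 1 Mb it was 30.8%, the lowest of the 9 cells, against 31.1% to 35.1% with a median of 33.4%. With distance matched within this band, cell 5 was lower than cell 1. The excess over the ensemble was -2.28 points in cell 5 and -2.10 in cell 1, and that over random positions 6.05 and 6.21. These bands differ in number of contacts, and their differences were not tested.

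The far cis contacts of cell 1 joined bins of the same compartment class less often than those of the other cells, and its trans contacts lay among theirs. Bins of 1 Mb were divided into 2 classes by the first eigenvector of the ensemble, 879 bins of class 1, the class richer in Bgl II fragment ends, and 1489 of class 2. Of the cis contacts of cell 1 over 10 Mb, 63.4% joined bins of the same class (7069 of 11144, Wilson interval 62.5 to 64.3). In the other cells it was 63.6% in cell 4 as the lowest, 70.5% as the median and 72.4% in cell 7 as the highest. Relative to ensemble contacts of the same chromosome and distance, the excess was 0.666 percentage points in cell 1 and 6.92 ± 2.70 (SD, n = 8) in the others, from 1.21 in cell 4 to 9.89 in cell 7. Cell 1 was the lowest of the 9 and its interval overlapped that of cell 4. The difference of -6.25 points had an exact permutation p of 0.222, the smallest possible, and of 0.778 after Benjamini-Hochberg adjustment.

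The same-class share of cell 1 was the lowest or next to lowest of the 9 cells at distances over 5 Mb. Against possible positions, the same-class share of cell 1 was 8.83 points in excess from 5 to 10 Mb, where the other cells had 9.79 to 19.6, and 10.4 points from 20 to 40 Mb, where they had 12.04 to 18.9. From 50 to 200 Mb it was the next to lowest, at 11.3 points against 9.87 in cell 4. In excess over the ensemble cell 4 was also lower, at -0.0294 points against 1.29 from 50 to 200 Mb and at 0.920 against 1.12 from 10 to 20 Mb. Cell 1 lay within the range of the others from 2 to 5 Mb, at 10.6 points against a range of 6.00 to 15.5. By chromosome, from 10 to 50 Mb, cell 1 had the lowest same-class excess over the ensemble on 10 of 19 autosomes (52.6%), and the other 8 cells on 9 of 152 (5.92%). The excess ran from -5.30 points on chromosome 7 to 7.47 on chromosome 8, so it differed among chromosomes of this one cell.

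**Figure D3:**
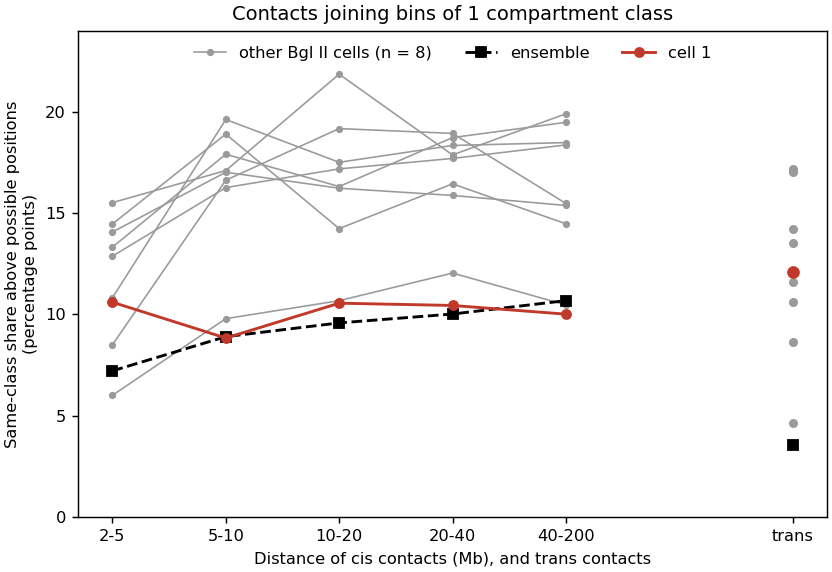
Same-class share of contacts above that of possible positions (percentage points) by distance of cis contacts (Mb) and for trans contacts, in cell 1 (red), the 8 other Bgl II cells (grey) and the ensemble (black squares). Cell 1 lies at 8.83 to 10.6 points in cis, under most grey lines, and at 12.1 points in trans, among the grey points.

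In trans contacts 65.3% of pairs joined bins of the same class in cell 1 (1334 of 2044, Wilson interval 63.2 to 67.3), and 57.8% to 70.3% in the others with a median of 65.8%. The excess over the ensemble was 8.51 points against 8.73 ± 4.25 (SD, n = 8), the fifth of the 9 cells in order. The difference of -0.219 points had an exact permutation p of 1, and it changed sign with the bin size and with some cells left out. The difference between the cis and the trans result was not itself tested.

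The makeup of the same-class contacts differed between cis and trans. In trans, contacts between 2 bins of class 1 occurred in cell 1 at 2.79 times the rate of possible positions, the highest of the 9 cells, against 1.85 to 2.63 with a median of 2.10. Contacts between 2 bins of class 2 occurred at 0.673 times, the lowest, against 0.754 to 0.975 with a median of 0.905. Contacts between the classes stood at 0.742, close to the median of 0.732. Of the trans ends of cell 1, 56.0% lay in class 1, against 44.7% to 51.6% in the other cells. The rates are not corrected for this, so they do not show how strongly ends of a class paired with each other. In cis from 10 to 50 Mb, mixed contacts were the most frequent of the 9 cells, at 0.785 times against 0.588 to 0.761, and class 2 with class 2 the least, at 1.18 times against 1.24 to 1.41. Class 1 with class 1 stood at 1.23, within the range of 1.17 to 1.45. These values were not tested.

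All 3 kinds of cis contact stood above the other cells from 20 to 40 Mb and below them from 50 to 75 Mb, while from 10 to 16 Mb mixed contacts did not stand apart. From 10 to 16 Mb, relative to 5 to 10 Mb, density was 0.993 for class 1 with class 1 and 0.999 for class 2 with class 2, where the highest of the other cells were 0.882 and 0.926. For mixed contacts it was 0.957, under the 0.980 of cell 6. From 20 to 40 Mb, relative to 5 to 10 Mb, density was 0.937 for class 1 with class 1, 0.777 for class 2 with class 2 and 0.753 for mixed contacts. The highest values of any other cell were 0.789, 0.755 and 0.728. From 50 to 75 Mb it was 0.254, 0.174 and 0.177, each below the lowest of the other cells, which were 0.283, 0.217 and 0.256. Of the 3 kinds, class 1 with class 1 thus kept the most density in cell 1 from 20 to 40 Mb, but not from 10 to 16 Mb. Its base from 5 to 10 Mb was 308 contacts. From 20 to 40 Mb it also led in cell 4, at 0.789, and in cell 9, at 0.695, and in no further cell.

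A further description, added after the data were seen, scored where on the ensemble map the contacts of a cell fell. Each contact was given the ensemble value of its pair of 1 Mb bins, divided by the ensemble mean at that distance, so that 1 is no preference. From 10 to 50 Mb the mean was 1.13 in cell 1 (9989 contacts) and 1.13 in cell 4, and in the other cells it went up to 1.25 with a median of 1.21. From 2 to 10 Mb it was 1.11 against 1.09 to 1.19. From 50 to 200 Mb it was 1.17 against 1.11 to 1.28. Cell 1 and cell 4 were the lowest pair in all 3 ranges.

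The few trans contacts of cell 1 were spread over fewer pairs of chromosomes than in any other cell. Of the autosome pairs, 134 had a contact and 37 had none, although ensemble shares at its 2055 trans contacts would leave nearly no pair empty. Cell 6, with 1733 trans contacts, had 140, cell 7 had 159, cell 4 had 167 and cell 10 had 168. Cells 2, 3, 5 and 9 had contacts in every pair. Pairs with no contact were thus 21.6% in cell 1 and 50 of 1368 in the others (3.65%). At 1733 trans contacts in every cell, cell 1 would hold 129 pairs and the others 140 or more, with a median of 165. The ratio of occupied to expected pairs was 0.784 in cell 1 and 0.964 ± 0.0631 (SD, n = 8) in the others, with cell 6 the lowest of them at 0.819. The difference of -0.180 had an exact permutation p of 0.222, the smallest possible, and of 0.778 after Benjamini-Hochberg adjustment.

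The missing pairs were not ones that are rare in general. Each of the 37 would be expected to hold 5.90 to 19.3 contacts at ensemble shares, where a count of 0 allows up to 3, and together 420 contacts. They take 20.5% of the trans contacts of the ensemble and 21.4% of those of the other 8 cells, from 18.5% to 24.4% by cell. Chromosome 19 lacked contact with 8 of its 18 partners, and chromosomes 4 and 9 with 6 each. Chromosome 15 had at least 1 contact with all 18, but only 1 with each of chromosomes 2, 5, 6, 13, 17 and 18. In those pairs 7.16 to 14.7 contacts were expected.

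**Figure D4:**
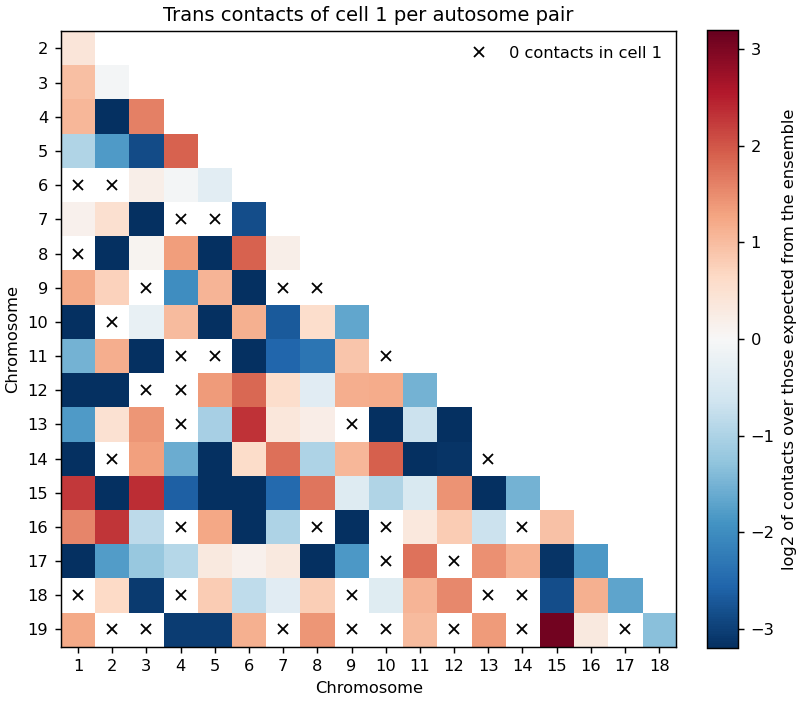
Trans contacts of cell 1 in each pair of autosomes, as the log2 of the number over that expected from ensemble shares (red above, blue below, values beyond the scale in its end colours); crosses mark the 37 pairs with 0 contacts. The pair of chromosomes 15 and 19 is the darkest red, with 61 contacts where 7.18 were expected.

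Cell 1 had the highest share of trans contacts in pairs far over their expected number, but not the most uneven spread by other measures. Pairs at more than 3 times their expected number held 31.4% of the trans contacts of cell 1, against 4.37% to 29.2% in the others with a median of 12.7%. The 5 fullest pairs of each cell held 14.9% in cell 1, 15.1% in cell 4 and 15.6% in cell 5, against a median of 10.5% over the other 8 cells. The dispersion of counts over pairs was 19.5 in cell 1, and higher in cells 2, 4 and 5 at 25.2, 36.7 and 26.7. Chromosomes 15 and 19 led with 61 contacts against 7.18 expected, or 8.50 times, where the most any other cell had was 4.46 times. Chromosomes 1 and 15 had 63 against 13.1, and no other cell was over 1.61 times its expected number for that pair. Chromosomes 2 and 16 had 62 against 12.7, though another cell had 5.40 times. Chromosomes 4 and 5 had 65 against 17.5, with another cell at 2.61 times. Chromosomes 6 and 13 had 56 against 11.3, with another cell at 4.11 times. These 5 pairs were named for their excess, so the ratios are descriptions.

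Within these pairs the contacts were spread over long stretches with small local groups. A group joins contacts whose ends are both less than 1 Mb apart. Of the 65 contacts between chromosomes 4 and 5, 41 were in groups of at least 2, and the largest group held 7, joining chr4:135064601-135513980 with chr5:64850838-65755377 in mm9. Between chromosomes 1 and 15, 23 of 63 were in groups, and the largest had 5, joining chr1:80327729-80864380 with chr15:98843943-99634044. Between chromosomes 15 and 19, 23 of 61 were in groups, the largest of 4 joining chr15:61912941-63234425 with chr19:42389765-43027794. Between chromosomes 2 and 16 the largest of 4 joined chr2:73193231-73690574 with chr16:22259857-24089710, and between chromosomes 6 and 13 the largest of 3 joined chr6:12467266-13625665 with chr13:55639647-56098126. The central 80% of contact positions on chromosome 15 in its pair with chromosome 19 ran from 34.8 to 103 Mb, and on chromosome 19 from 24.5 to 59.4 Mb. The contacts of this leading pair thus lay over much of each chromosome, which does not show a single contact zone.

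Trans contacts of cell 1 lay near one another more often than in the other cells. A neighbour was defined as a contact within 1 Mb at both ends that shares no fragment end. In cell 1, 37.8% of trans contacts had one, against 5.81% to 25.8% in the others with a median of 22.7%. Reduced to 1733 trans contacts in every cell, the shares were 33.7% in cell 1 and 5.74% to 23.4% in the others, with a median of 10.4%. Cis contacts from 10 to 50 Mb lay among those of the other cells in this respect: at 1733 contacts in every cell, 20.99% had a neighbour in cell 1, and 15.4% to 28.5% in the others with a median of 21.8%. The higher share in cell 1 over all its cis contacts of that range, 66.8% against a median of 40.9%, came with 10022 contacts, against 1733 to 4978 in the others. The reduction to 1733 thus started from 10022 cis contacts in cell 1 but from only 2055 trans contacts. The cis and trans results differ in how much was removed, and the difference between them was not tested.

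The 5 largest groups of cis contacts over 10 Mb in cell 1 joined pairs of regions a few Mb wide. Groups are chains of contacts less than 1 Mb apart, so they do not show that these were compact interactions. On chromosome 11, 21 contacts joined chr11:88922018-92254632 with chr11:109253184-112977850, at a median distance of 21.001 Mb. That box held 22 contacts of cell 1 where 3.58 were expected from the ensemble at this distance, and 11 contacts from 6 of the other 8 cells. On chromosome 19, 19 contacts joined chr19:26440290-30263434 with chr19:52806096-57445776, in a box with 20 contacts against 4.92 expected and 14 in the others. On chromosome 1, 18 contacts joined chr1:38279153-42637971 with chr1:71621636-74605037, in a box with 20 contacts against 2.74 expected, where the other 8 cells together had 2. On chromosome 6, 17 contacts joined chr6:53983814-57859166 with chr6:96379107-98409091, 41.5 Mb apart, near the edge of the shelf, against 1.04 expected and 7 in the others. On chromosome 2, 15 contacts joined chr2:95836507-99840011 with chr2:108685712-111360239, regions of class 2 bins alone, against 0.809 expected and 10 in the others. Boxes were drawn around the largest groups of this cell, so these ratios are no test. The expected numbers are for cell 1 alone. None was computed for the other 8 cells, so their counts do not show whether a box was also enriched in them. No gene is named here, since no annotation of the mm9 build was used.

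The trans share of cell 1 was lower in the middle of the chromosomes and higher at their far ends. The other cells leaned the same way at the far ends, and all but cell 2 in the middle. Cell 1 did so to a greater degree, which was not tested. The measure is a ratio to the trans share of the same cell, and that share was used to choose cell 1. Mouse chromosomes carry the centromere at their start, so the last stretch is the one farthest from it. In the last 10 Mb, the trans share of contact ends in cell 1 was 1.43 times that of its whole map (9.80%, Wilson interval 9.01 to 10.7), the highest of the 9 cells, against 1.10 to 1.38 with a median of 1.21. In the middle 20% of the chromosomes it was 0.772 times, the lowest, against 0.840 to 1.02. In the first 10 Mb it was 1.07 times, near the low end of the other cells, which had 1.06 to 1.37. With each chromosome cut into 10 equal parts it was lowest in the sixth, at 0.657 times, and highest in the last, at 1.33 times. By class, ends in class 1 were trans 1.39 times as often as the whole map, above all other cells with 1.08 to 1.24, and those in class 2 at 0.733 times, below their 0.824 to 0.940. Cell 6, with the next lowest trans share, came next to cell 1 in the last 10 Mb at 1.38 and in class 1 at 1.24. In the middle 20% cell 7 came next, at 0.840. Class and place along the chromosome were not separated here.

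**Figure D5:**
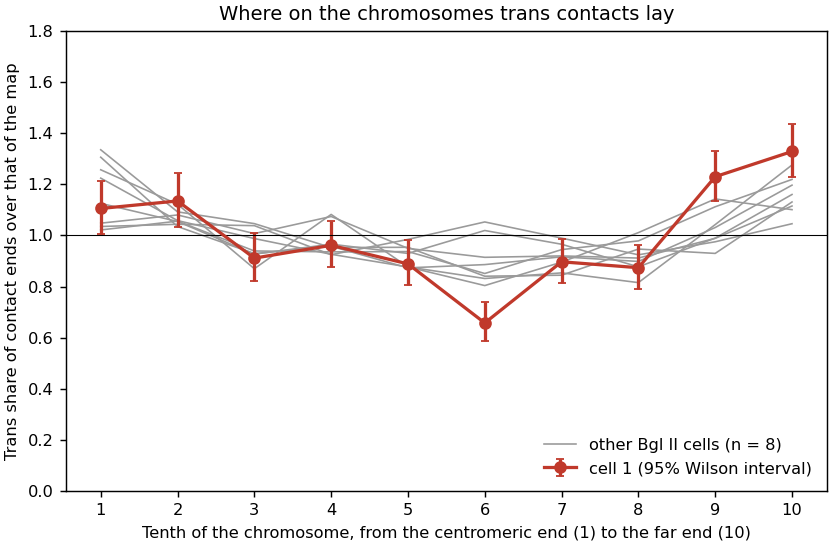
Trans share of contact ends in 10 equal parts of the autosomes, from the centromeric end (1) to the far end (10), divided by that of the whole map, for cell 1 (red, with 95% Wilson intervals) and the 8 other Bgl II cells (grey). Cell 1 is at 0.657 in the sixth part, under all grey lines, and at 1.33 in the last, above them.

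Both ends of a trans contact tended to lie at a like distance from the start of their chromosomes, in cell 1 as in the other cells. The 2 ends differed in that distance by 39.7 Mb on average in cell 1, where pairing its own trans ends of the same chromosomes at random gives 45.2 Mb. The difference of -5.53 Mb compared with -3.48 ± 2.17 Mb (SD, n = 8) in the others, from -6.24 Mb in cell 5 to -0.477 Mb in cell 2. Cell 1 was the fourth from the lowest, and the exact permutation p was 0.889, or 1 after Benjamini-Hochberg adjustment.

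Fragment ends with more than 1 partner can arise where a cell holds more than 1 copy of a locus. They were 1065 of 58874 ends in cell 1, or 1.81%, against 1.16% to 1.87% in the others with a median of 1.45%, and the exact permutation p was 0.667, or 0.933 after Benjamini-Hochberg adjustment. The share grows with the number of contacts. At 10834 contacts in every cell, the full number of cell 10, it was 0.647% in cell 1, the lowest of the 9. Cell 4 was next with 0.649%, and cell 10 had 1.36%. Apart from cell 4, these reduced shares were lower the more contacts a map held. The rank of cell 1, the map with the most contacts, thus cannot be told apart from its depth. A single end in cell 1 had 3 partners, and the others had 1 to 5 such ends. On chromosome X, of which cells of male mice carry a single copy before replication, 1 of 1310 ends in cell 1 had more than 1 partner, and 0 to 6 ends in the others did.

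In its sampling of the classes cell 1 was inside the range of the others. Contact ends in class 1 per end in class 2, relative to the ensemble, were 0.580 in cell 1 and 0.603 ± 0.0399 (SD, n = 8) in the others, from 0.549 in cell 9 to 0.685 in cell 10. The difference of -0.0230 had an exact permutation p of 0.667, or 0.933 after Benjamini-Hochberg adjustment.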

How the data were processed

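Each line of the deposited tables is 1 contact, given per the file headers as the genomic positions of its ends, with no read numbers. Coordinates are on mm9, per the submitters' processing notes. Not given in the sources used here were the aligner and any filter on reads. Libraries were made by Alu I digestion of bead-bound junctions and PCR, per the labels' protocols, and PCR reads are not independent molecules.

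Tables were read with pandas 2.3.3 and computed with scipy 1.17.1 and numpy 2.4.6 under Python 3.11.15, and matplotlib 3.10.9 drew the figures. Contacts on chromosomes 1 to 19 were used, with X as an alternative. Domains came from minima of ensemble insulation (50 kb bins, 500 kb window, prominence 0.1) after 50 rounds of balancing, without bins whose row sum was under 0.2 of the median. The first eigenvector at 1 Mb gave the classes by its sign, numbered by the density of ensemble fragment ends. Both callers were tested on simulated data. The ensemble lists each pair of ends once however often it was joined, and what this does to its shares was not tested. Values at equal numbers are expected values of thinning, computed without draws.

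The members and lists were chosen with earlier results of these data known. Regions were named by rule: the 5 autosome pairs with the largest excess and their largest group, the 5 largest groups of cis contacts over 10 Mb, and the 3 highest and 3 lowest autosomes for the shares from 10 to 16 Mb and over 50 Mb. The 7 measures were tested by enumerating the 9 assignments of 1 cell, two-sided, with Benjamini-Hochberg adjustment. Gene names need an mm9 annotation and are not used here. Alternatives were other bands, bins, windows, expected shares and balancing, grouped contacts counted once, thinning, X added, cell 8 added, and each cell or autosome left out.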

Additional observations from a re-analysis of the deposited data

Results flagged for a closer look

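Of 80 sets of values over 8 or 9 cells, 4 held a cell whose gap to the nearest other cell was large for the range of the set; chance gives about 1 in 20 such sets, which is the number seen. None of the 4 was a value of cell 1, but the sets for the trans share and for bands of cis distance left cell 1 out. In those sets it could not be flagged. Contact ends of class 1 per end of class 2, relative to the ensemble, were 0.685 in cell 10, with the nearest cell at 0.614. Cis contacts from 0.02 to 0.1 Mb were 7.57% in cell 4, against 11.1% in the nearest of the other 8 cells without cell 1. Cell 1, left out of that set, had 10.1%, which is nearer to cell 4. Cell 6 had 5.14% of its contact ends on chromosome 5 and 3.94% on chromosome 7, with the nearest cells at 5.86% and 4.82%. These cells are part of the group that cell 1 was compared with, and leaving out each of them is covered by the ranges given next.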

How the results depend on the processing

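Values here are cell 1 minus the mean of the other cells, unless stated. The same-class excess of trans contacts, -0.219 points, turned to 1.03 with class bins of 500 kb and to 0.236 with grouped contacts counted once. With each cell left out in turn it ran from -1.30 to 0.482, and was above 0 without cell 5, 6 or 7. The share of ends with more than 1 partner turned from 0.299 to -0.348 points at equal numbers, and ran from 0.249 to 0.351 with cells left out. The step from 5 to 10 Mb to 10 to 16 Mb is given as the ratio in cell 1 itself. It moved from 0.977 to 1.15 when 8 to 10 Mb was set against 10 to 12 Mb, and to 1.17 when divided by ensemble counts. The other results kept their direction under all alternatives run. With cells left out, the domain excess ran from -1.18 to -0.859 points, the cis same-class excess from -7.07 to -5.82, the occupied pairs from -0.201 to -0.175, the start difference from -2.44 to -1.62 Mb and the class ratio from -0.0306 to -0.0113. The domain excess ranged most, from -0.0252 points at 50 to 200 kb to -2.49 at 500 kb to 1 Mb, and was -2.34 with a window of 1 Mb. With grouped contacts counted once, the cis same-class excess of cell 1 itself turned from 0.666 to -0.332 points. No paired analysis was possible because cell numbers pair no samples across groups. With 1 cell, no alternative could pass the threshold, so these ranges describe values alone.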
